A study of Mus musculus with 10 samples.

Results

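The EphA receptors are a family of receptor tyrosine kinases, and 9 of its genes were examined: Epha1, Epha2, Epha3, Epha4, Epha5, Epha6, Epha7, Epha8 and Epha10. A receptor was taken as every probe set annotated to exactly 1 gene symbol, its own. This gave 232 probe sets for the 9 receptors, which are 9 of the 22103 genes named on the array. Epha2, Epha7, Epha8 and Epha10 lie on mouse chromosome 4, Epha3 and Epha6 on chromosome 16, Epha4 on chromosome 1, Epha5 on chromosome 5 and Epha1 on chromosome 6. EphA receptors bind ephrin-A ligands, which are tethered to the membrane of a neighbouring cell by a lipid anchor. Contact sets off signals in both cells, and the receptor side acts on the actin cytoskeleton. In the brain the family is known for axon guidance, for the retraction of dendritic spines and, in the case of Epha4, for contact between neurons and astrocytes.

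Amygdala tissue came from neuropsin-/- and wild-type (C57BL/6) mice aged 3 months, with 5 arrays per genotype. Neuropsin, encoded by Klk8, is a secreted serine protease known to cleave the related receptor EphB2 in the amygdala. The neuropsin-/- line had been backcrossed to C57BL/6, and no other allele or treatment is given in the labels. Each array was read as 1 pool of RNA from 3 animals, so p-values measure the spread between pools.

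The values are log2 expression values on exon arrays, where 1 probe set covers about 1 exon. A probe set was kept where its average on the 10 arrays was above 4.94, the middle value of the whole table. The gene level is the mean of a gene's kept probe sets, and the 16367 genes with at least 3 of them were tested with limma. Klk8 itself averaged 5.83 ± 0.28 in knockout and 6.22 ± 0.28 in wild type at its gene level of 5 kept probe sets (SD, n = 5 each). This difference of -0.39 (SE 0.15, 95% confidence interval -0.70 to -0.07) had an unadjusted p of 0.0199 and did not pass over all genes (limma adjusted p = 0.693), and the genotypes overlapped. Over all 9 Klk8 probe sets the means were 5.02 ± 0.29 in knockout and 5.17 ± 0.27 in wild type (SD, n = 5 each, exact two-sided permutation p = 0.413). The deleted exons are not named in the labels, so Klk8 could not be used to check them. Wild-type arrays 4 and 5 stood apart from the other 8 along the leading principal component of all genes. Neuron and glia markers were measured on every array, and no named probe set was at 0 on all arrays.

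No EphA receptor passed the test for a difference between the genotypes at the gene level. All 9 could be tested, 6 were higher and 3 lower in knockout, and none passed an adjusted p of 0.05 (limma, smallest adjusted p = 0.693), a call made for 0.0244% of all genes. The median difference over the receptors was 0.10 on the log2 scale, beside -0.00188 over all genes tested. Without wild-type array 5 the receptors' median was 0.0253, beside -0.0178 over all genes in that fit. With arrays 4 and 5 of both genotypes left out, a setting chosen after seeing the data, it was 0.0283, beside -0.0466 over all genes. An unadjusted p under 0.05 was found for 2 of the 9 receptors, against 6.98% of all genes. Epha4 was the 1 on the higher side, where 2.84% of all genes were, and Epha2 the 1 on the lower side, where 4.14% were. The 95% confidence intervals of the 9 differences reached no further than -0.35 on the lower side and 0.42 on the upper side.

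Epha4, the receptor known for spine retraction and for binding ephrins of both classes, had the highest difference of the family. Its gene level was 9.002, 8.90, 8.92, 8.88 and 8.89 on knockout arrays 1 to 5, against 8.66, 8.83, 8.91, 8.47 and 8.57 on wild-type arrays 1 to 5. The knockout arrays lay close together, while wild-type array 3 reached into their range and wild-type arrays 4 and 5 were the lowest. The means were 8.92 ± 0.05 in knockout and 8.69 ± 0.18 in wild type (SD, n = 5 each). The difference was 0.23 with an SE of 0.09 and a 95% confidence interval of 0.04 to 0.42, a 1.17-fold higher level (limma adjusted p = 0.693). Without wild-type arrays 4 and 5 the Epha4 difference was 0.12 (limma adjusted p = 0.584), in a fit where the median of all genes was -0.048.

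Epha2, known mainly from epithelial cells, was the receptor furthest in the other direction. It was at 6.27, 6.28, 6.34, 6.47 and 6.31 on knockout arrays 1 to 5, against 6.51, 6.43, 6.43, 6.66 and 6.57 on wild-type arrays 1 to 5. Only knockout array 4 reached into the wild-type range. The means were 6.33 ± 0.08 in knockout and 6.52 ± 0.10 in wild type (SD, n = 5 each), a difference of -0.19 with an SE of 0.07 (limma adjusted p = 0.693). Epha2 was at -0.12 without wild-type arrays 4 and 5, where the median of all genes was -0.048. It was at -0.10 with a stricter intensity filter (above 6.499). That filter left out all 3 Epha2 probe sets with an unadjusted limma p under 0.05. These were dim, with genotype means of 5.10 to 6.20.

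The genotypes of these 2 receptors separated fully when dim probe sets were kept. Over all 24 probe sets Epha4 lay between 8.70 and 8.83 in knockout and between 8.30 and 8.67 in wild type. For Epha4 the separation rested on a single added probe set, 4399439, which was under the filter and at 3.09 on wild-type array 3. With the 23 kept probe sets that array was at 8.91 and overlapped the knockout arrays. Over all 22 probe sets Epha2 lay between 5.51 and 5.63 in knockout and between 5.64 and 5.79 in wild type. Such separation was found for 1.49% of the 20087 genes measured without the filter. Neither receptor passed in that fit (limma adjusted p = 0.656 for Epha4 and 0.736 for Epha2).

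The promoters of Epha4, Epha2, Epha3 and Epha7 are given. Epha4 and Epha2 had the smallest p of the family, and Epha3 is compared with Epha4 and with Epha7 across arrays further on. All 9 receptors had a window in the RefSeq promoter table (build GRCm38.p6), from 250 bases before to 50 after the gene start. Capitals mark GC boxes (GGGCGG) and cyclic AMP response elements (TGACGTCA), searched on both strands; the 2 motifs do not overlap in these windows.
Epha4 (chr1:77515039-77515338, minus strand): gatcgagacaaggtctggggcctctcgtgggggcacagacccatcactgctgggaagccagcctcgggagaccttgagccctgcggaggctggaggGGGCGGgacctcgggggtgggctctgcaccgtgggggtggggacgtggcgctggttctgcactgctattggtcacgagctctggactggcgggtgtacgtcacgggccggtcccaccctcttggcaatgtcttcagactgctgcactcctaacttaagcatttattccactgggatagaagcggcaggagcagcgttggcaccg
Epha2 (chr4:141300971-141301270, plus strand): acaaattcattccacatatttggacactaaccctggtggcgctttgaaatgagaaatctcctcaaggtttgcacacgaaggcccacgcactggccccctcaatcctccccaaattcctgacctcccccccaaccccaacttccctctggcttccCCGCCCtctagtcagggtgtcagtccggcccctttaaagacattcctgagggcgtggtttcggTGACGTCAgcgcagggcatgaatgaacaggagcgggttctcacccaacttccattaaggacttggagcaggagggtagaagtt
Epha3 (chr16:63864126-63864425, minus strand): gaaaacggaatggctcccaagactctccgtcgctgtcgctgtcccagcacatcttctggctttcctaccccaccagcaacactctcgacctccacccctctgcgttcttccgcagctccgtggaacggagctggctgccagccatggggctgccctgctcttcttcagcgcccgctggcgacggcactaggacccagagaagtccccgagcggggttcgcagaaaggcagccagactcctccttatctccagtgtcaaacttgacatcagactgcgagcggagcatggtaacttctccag
Epha7 (chr4:28812881-28813180, plus strand): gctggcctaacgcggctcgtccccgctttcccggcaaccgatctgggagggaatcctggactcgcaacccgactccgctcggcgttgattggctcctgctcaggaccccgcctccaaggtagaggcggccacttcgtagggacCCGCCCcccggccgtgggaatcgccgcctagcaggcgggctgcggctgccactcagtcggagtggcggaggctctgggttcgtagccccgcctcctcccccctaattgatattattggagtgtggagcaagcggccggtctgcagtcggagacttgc
The windows of Epha4, Epha2 and Epha7 each hold 1 GC box, which 35.7% of all 32851 windows hold, and that of Epha3 holds none. Epha2 alone among the 9 receptors holds TGACGTCA, found in 1.79% of all windows. None of the 9 receptors holds TATAAA, which 13.6% of all windows hold on either strand. Epha4 and Epha3 have 17 and 18 CpG dinucleotides, Epha7 has 28 and Epha2 has 10, where the median of all windows is 7.

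**Figure D1:**
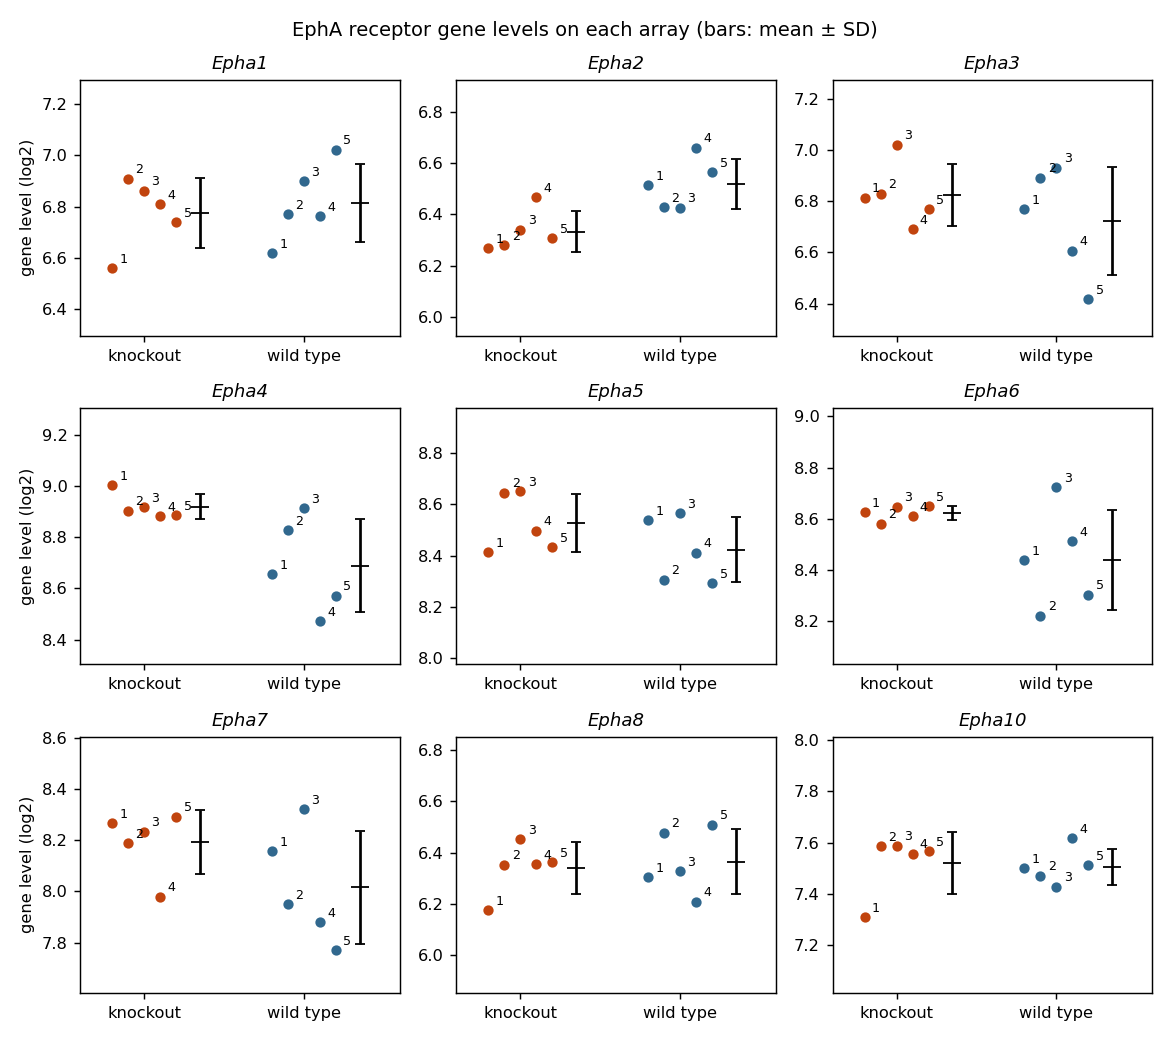
Gene level (log2, vertical axis) of each EphA receptor on the 5 knockout arrays (orange, left) and the 5 wild-type arrays (blue, right); numbers are array numbers, and bars are the mean ± SD of 5 arrays. Every panel spans 1 log2 unit. In every panel the genotypes overlap, and Epha4 and Epha6 vary less among knockout arrays (SD 0.05 and 0.03) than among wild-type arrays (SD 0.18 and 0.20).

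Epha6 and Epha7, both known from topographic mapping of axons, also lay higher in knockout without passing. Epha6 was at 8.63, 8.58, 8.65, 8.61 and 8.65 on knockout arrays 1 to 5, against 8.44, 8.22, 8.72, 8.51 and 8.30 on wild-type arrays 1 to 5. Wild-type array 3 exceeded all knockout arrays and the other 4 wild-type arrays lay below them. The difference of Epha6 was 0.18 (SE 0.09, 95% confidence interval -0.01 to 0.38). Epha7 was at 8.27, 8.19, 8.23, 7.98 and 8.29 on knockout arrays 1 to 5, against 8.16, 7.95, 8.32, 7.88 and 7.77 on wild-type arrays 1 to 5. Wild-type arrays 2, 4 and 5 and knockout array 4 were low for Epha7. Its difference was 0.18 (SE 0.11), and 0.05 without wild-type arrays 4 and 5, where the median of all genes was -0.048.

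Epha3 and Epha5, both receptors of ephrin-A5, differed by less. Epha5 ranged from 8.41 to 8.65 in knockout and from 8.29 to 8.57 in wild type, a difference of 0.11 (SE 0.08). Epha3 ranged from 6.69 to 7.02 in knockout and from 6.42 to 6.93 in wild type, with wild-type arrays 4 and 5 at 6.61 and 6.42. Its difference of 0.10 (SE 0.10) was -0.04 without these wild-type arrays, where the median of all genes was -0.048.

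The remaining 3 receptors, Epha10, Epha8 and Epha1, differed least, by 0.02, -0.03 and -0.04. Epha10, whose kinase domain is thought to be inactive in humans, averaged 7.52 ± 0.12 in knockout and 7.51 ± 0.07 in wild type (SD, n = 5 each). Its 95% confidence interval ran from -0.15 to 0.18. Epha8 averaged 6.34 ± 0.10 in knockout and 6.36 ± 0.13 in wild type (SD, n = 5 each), a difference of -0.03 (95% confidence interval -0.20 to 0.15). Epha1, like Epha2 known mainly from epithelia, averaged 6.78 ± 0.14 in knockout and 6.81 ± 0.15 in wild type (SD, n = 5 each). It was the least well measured, since 7 of its 24 probe sets passed the intensity filter, against 15 of 22 for Epha2 and all 25 for Epha10.

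**Figure D2:**
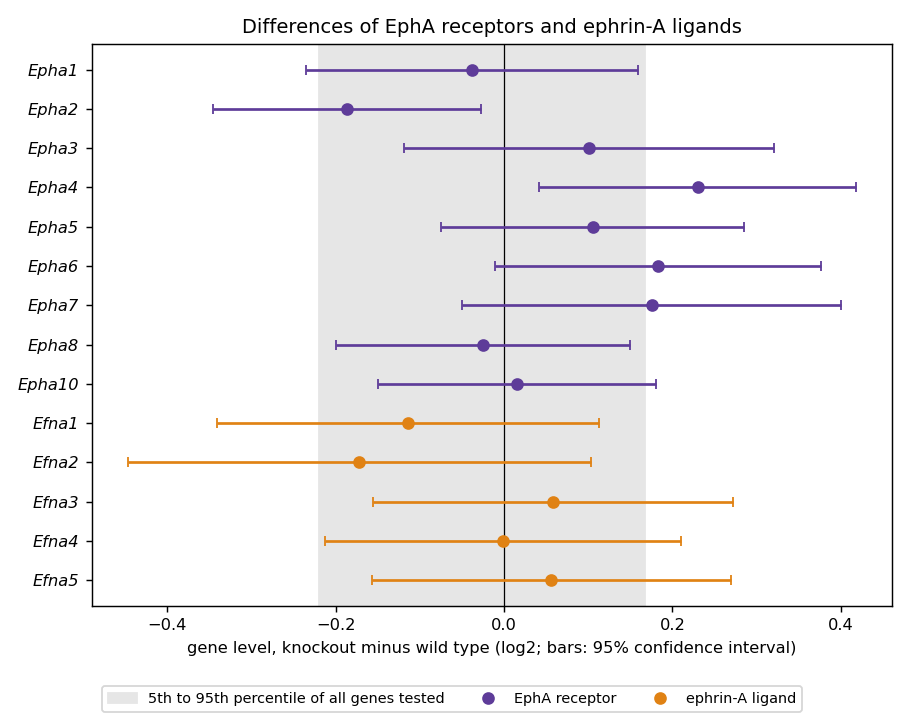
Difference of the gene level, knockout minus wild type (log2, horizontal axis), for the 9 EphA receptors (purple) and the 5 ephrin-A ligands (orange), with 95% confidence intervals as bars; the grey band holds the 5th to 95th percentile of all genes tested, -0.22 to 0.17. Epha4 at 0.23, Epha6 at 0.18 and Epha7 at 0.18 lie above the band, and only the intervals of Epha4 and Epha2 leave out 0.

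The share of genes higher in knockout differed with brightness over all genes, and 8 of the 9 receptors lay on the side of the median of their range, Epha3 being the exception. Epha4, Epha5, Epha6 and Epha7 all had a mean level between 8 and 9 and all lay higher in knockout. Of the 2682 genes in that range 67.7% were higher in knockout, with a median difference of 0.04. Epha2 and Epha8 lay under 6.5 and both were lower in knockout, where 29.6% of 4867 genes were higher and the median was -0.07. Epha3 and Epha1 lay between 6.5 and 7, where 41.6% of 2835 genes were higher and the median was -0.02, and they differed by 0.10 and -0.04. Epha10 lay between 7 and 8, where 60.4% of 4889 genes were higher. Cyclic loess between the arrays, which removes such a trend, was added after seeing the data. With it Epha4 was at 0.20, Epha6 at 0.15, Epha7 at 0.14 and Epha2 at -0.14, while Epha8 turned to 0.02 and Epha10 to -0.01, and none passed. Over all genes the share higher in knockout also differed with the number of kept probe sets. It was 34.1% with 3 to 9 probe sets, the range of Epha1. Epha2, Epha3 and Epha8 had 10 to 19, where 51.6% were higher, and of these Epha3 was higher while Epha2 and Epha8 were lower. Epha4, Epha7 and Epha10 had 20 to 29, where 67.8% were higher, and Epha5 and Epha6 had 30 or more, where 79.5% were higher.

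The gene levels are means of the kept probe sets, so single probe sets add detail and no separate support. Of the 232 probe sets 196 passed the intensity filter, 132 of them higher and 64 lower in knockout, with a median difference of 0.10. The share of all probe sets that were higher in knockout was not computed. None passed an adjusted p of 0.05 over all 628415 probe sets (limma, smallest adjusted p = 0.763), a call made for 0.00239% of them. An unadjusted p under 0.05 was found for 16 (8.16%), against 5.97% of all probe sets. The genotypes did not overlap in 3 of the 196, against 1.1% of all probe sets.

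In Epha4 20 of 23 probe sets were higher in knockout, in Epha6 28 of 33 and in Epha7 21 of 26. Probe sets of the same gene were read on the same arrays, so these counts are not repeated evidence. Probe set 4600428 of Epha4 had the smallest p of the family. It was at 6.64, 6.57, 7.15, 6.38 and 6.53 on knockout arrays 1 to 5, against 6.21, 6.02, 6.09, 5.94 and 5.33 on wild-type arrays 1 to 5. All knockout arrays lay above all wild-type arrays, by 0.74 on average (SE 0.20, limma adjusted p = 0.763). Within Epha4, probe set 5345777 had the next smallest p, at 0.42 (SE 0.17).

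Among the kept probe sets the widest difference was at 5295301 of Epha6, a dim one. Its mean was 5.46 in knockout and 4.57 in wild type. Thus it passed the intensity filter only through its knockout values, and its width gives no support. It was at 5.83, 4.88, 5.69, 5.41 and 5.48 on knockout arrays 1 to 5, against 4.87, 4.49, 5.28, 4.64 and 3.59 on wild-type arrays 1 to 5. The genotypes overlapped, and wild-type array 5 was the lowest. The difference was 0.88 (SE 0.28, limma adjusted p = 0.784). Probe set 4322526 of Epha6 differed by 0.34 (SE 0.15). Of the other Epha6 probe sets, 5122238 and 5322261, named after their values were seen, did not overlap between the genotypes. They lay at 8.27 to 8.56 and 9.74 to 9.94 in knockout, against 7.83 to 8.20 and 9.33 to 9.70 in wild type.

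In Epha2 10 of 15 probe sets were lower in knockout, and 3 had an unadjusted p under 0.05. Among the lower ones, 5508428 had passed the intensity filter only through its wild-type values. Its mean was 4.88 in knockout and 5.28 in wild type. Probe set 4474296 was at 4.82, 5.91, 4.99, 6.21 and 5.26 on knockout arrays 1 to 5, against 6.52, 6.08, 6.08, 6.37 and 5.98 on wild-type arrays 1 to 5. Knockout array 4 alone reached into the wild-type range, knockout array 2 lay just below it, and 1, 3 and 5 lay further below. The difference was -0.77 (SE 0.26, limma adjusted p = 0.798), and probe set 4856460 of Epha2 differed by -0.59 (SE 0.22).

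Among the other receptors the leading probe sets went in both directions. Epha5 had 19 of 30 higher, led by 5594622 at 0.40 (SE 0.15) and 4470184 at 0.49 (SE 0.21). Epha7 was led by 5264528 at 0.55 (SE 0.21) and 4940744 at 0.38 (SE 0.16). Epha8 was split, with probe set 4687042 at -0.64 (SE 0.30) and 5437993 at 0.57 (SE 0.28). Epha10 was split too, with 4600186 at -0.49 (SE 0.25) and 4367159 at 0.38 (SE 0.21). In Epha3 probe set 5020188 was at 0.53 (SE 0.29) and 4398029 at 0.38 (SE 0.26), and 13 of 19 were higher. In Epha1 the 2 of smallest p, 4514012 and 5391326, were at -0.30 (SE 0.20) and -0.23 (SE 0.18).

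**Figure D3:**
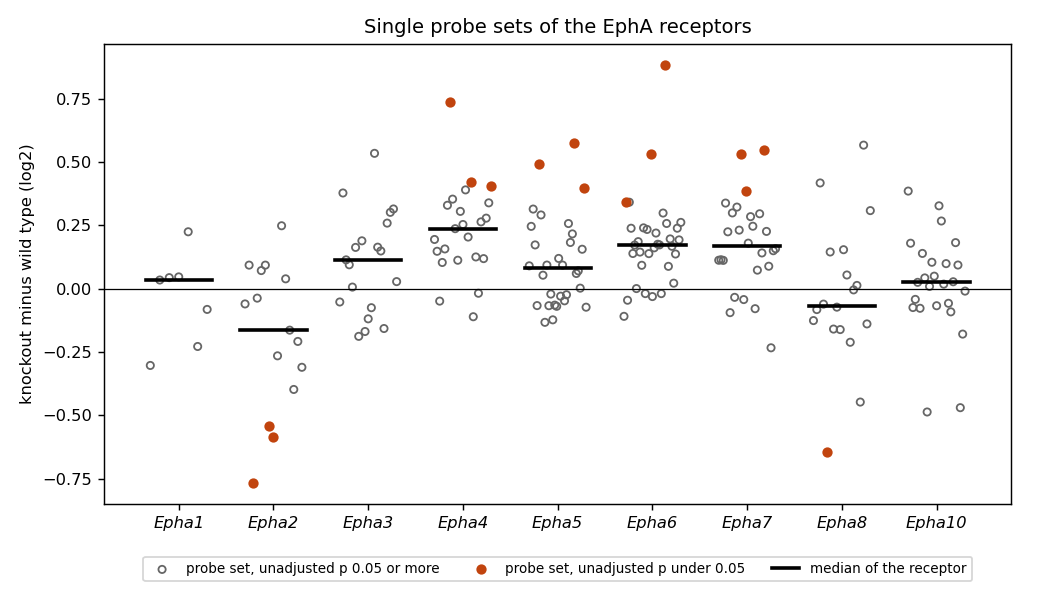
Difference of each probe set, knockout minus wild type (log2, vertical axis), for the 196 probe sets past the intensity filter, grouped by receptor; filled points have an unadjusted p under 0.05 and black lines are the receptor's median. The medians of Epha4, Epha6 and Epha7 lie at 0.24, 0.17 and 0.17, that of Epha2 at -0.16, and all filled points of Epha4, Epha5, Epha6 and Epha7 lie above 0.

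Relative use of exons, a difference of single probe sets against the rest of their gene, passed in no EphA receptor (limma diffSplice, Simes p). It passed in 1.69% of all genes, and the smallest adjusted p in the family was 0.161 for Epha6, followed by 0.306 for Epha4. The leading probe set of Epha6 was 5295301, higher by 0.72 relative to its gene, and that of Epha4 was 4600428, higher by 0.53. Probe set 5295301 had passed the intensity filter only through its knockout values. With the variance estimated probe set by probe set, which called 0.0367% of genes, the Epha6 adjusted p was 0.990 and that of Epha4 0.981. Without wild-type array 3 Epha6 was the 1 receptor that passed (Simes adjusted p = 0.0343), in a fit that called 2.02% of all genes. Epha6 also passed with the replicate numbers as a block (Simes adjusted p = 0.0498), where 2.74% of all genes were called. It did not pass without the intensity filter (Simes adjusted p = 0.153), where 3.1% were called.

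None of the 5 ephrin-A ligands passed either (limma, smallest adjusted p = 0.820), 2 were higher and 3 lower in knockout, and their median difference was -0.0017. Efna5, the ligand most studied in axon mapping, averaged 7.08 ± 0.15 in knockout and 7.03 ± 0.18 in wild type (SD, n = 5 each). Efna3, the astrocyte ligand of Epha4, averaged 8.25 ± 0.14 in knockout and 8.19 ± 0.19 in wild type (SD, n = 5 each). Efna1 and Efna2 differed by -0.11 (SE 0.11) and -0.17 (SE 0.13). Efna4 averaged 6.43 in both genotypes.

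The related EphB receptors and ephrin-B ligands numbered 8, of which none passed (limma, smallest adjusted p = 0.834), with 3 higher and 5 lower in knockout and a median of -0.01. Efnb2, which Epha4 also binds, differed by 0.08 (SE 0.07), Efnb3 by -0.09 (SE 0.11) and Ephb2 by 0.06 (SE 0.08).

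Among genes that act downstream of Eph receptors, none of 14 exchange factors and other GTPase regulators passed (limma, smallest adjusted p = 0.614). They were 6 higher and 8 lower in knockout with a median of -0.03. Kalrn, an exchange factor of dendritic spines, was at 8.74, 8.72, 8.68, 8.70 and 8.83 on knockout arrays 1 to 5, against 8.58, 8.28, 8.57, 8.48 and 8.501 on wild-type arrays 1 to 5. All knockout arrays lay above all wild-type arrays. Its difference was 0.25 (SE 0.08). Arhgef16, an exchange factor related to ephexin, did not overlap either and differed by -0.25 (SE 0.08), while Tiam1, an exchange factor recruited by Eph receptors, differed by 0.22 (SE 0.08). Over all genes 1.55% had genotypes that did not overlap. Kalrn and Tiam1 lay at levels of 8 to 9, where 67.7% of all genes were higher in knockout. Both had 30 or more kept probe sets, where 79.5% were higher. Arhgef16 lay under 6.5, where 29.6% were higher.

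Of 20 adaptors and kinases 16 were higher and 4 lower in knockout, with a median of 0.05, and none passed (limma, smallest adjusted p = 0.693). Inppl1, the lipid phosphatase SHIP2 that binds Epha2, differed by 0.22 (SE 0.08), Src, a kinase active below Eph receptors, by 0.14 (SE 0.07) and Anks1b by 0.09 (SE 0.07). For Src the genotypes did not overlap, as was found for 1.55% of all genes. Of 7 phosphatases and proteases that act on Eph receptors 6 were higher, with Ptpn1 at 0.14, Ptpro at 0.12 and the ephrin-shedding protease Adam10 at 0.05. Over all genes 49.3% were higher in knockout. The share was 60.4% at levels of 7 to 8 and 67.7% at 8 to 9, where most genes of both lists lay. The astrocyte glutamate transporters Slc1a3 and Slc1a2, known to be regulated through Epha4, differed by 0.16 (SE 0.09) and 0.02 (SE 0.09). None of these genes passed (limma, adjusted p of 0.716 or more apart from Inppl1).

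No pair of receptors passed a test for moving together or apart across arrays of the same genotype. Levels were centred within each genotype and the 36 pairs of receptors were compared over the 10 arrays by exact permutation within genotype (two-sided). Epha4 and Epha2 had a Pearson r of -0.82 (exact permutation p = 0.00438, adjusted over the 36 pairs p = 0.0788) and a Spearman rho of -0.92 (exact permutation p = 0.00361, adjusted p = 0.130). Without the 2 arrays farthest from the median of Epha2, knockout and wild-type array 4, r was -0.91, and without wild-type arrays 4 and 5 it was -0.58. The smallest adjusted p for r was 0.0700, and 3 pairs had an unadjusted p under 0.05 for r.

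The other 2 of these pairs were Epha4 with Epha10 at -0.66 (exact permutation p = 0.00194, adjusted p = 0.0700) and Epha3 with Epha7 at 0.72 (exact permutation p = 0.0478, adjusted p = 0.389). Their Spearman rho was -0.58 (exact permutation p = 0.0756, adjusted p = 0.389) and 0.70 (exact permutation p = 0.0620, adjusted p = 0.389). Epha3 and Epha4 had an r of 0.73 (exact permutation p = 0.0654, adjusted p = 0.389) and a rho of 0.82 (exact permutation p = 0.0194, adjusted p = 0.315). Without wild-type arrays 4 and 5 the r of Epha3 with Epha7 was 0.36, that of Epha3 with Epha4 0.48 and that of Epha4 with Epha10 -0.59. Without the 2 farthest arrays of the first receptor they were 0.42, 0.66 and -0.54.

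**Figure D4:**
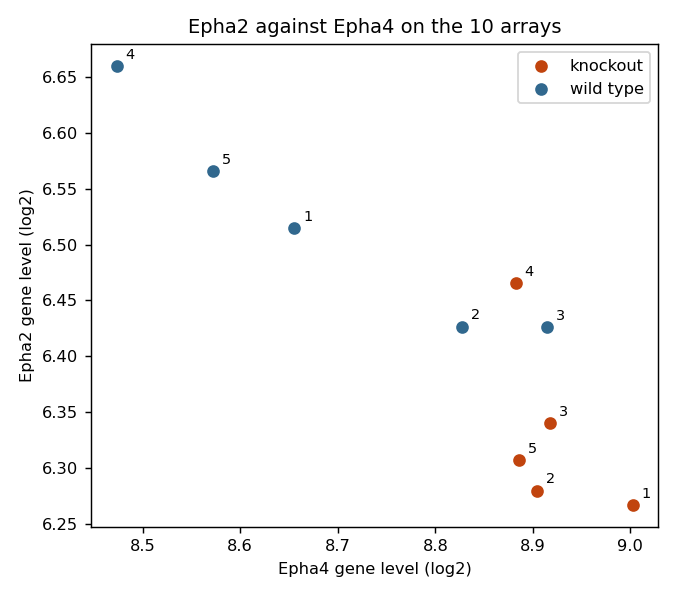
Epha2 gene level (log2, vertical axis) against Epha4 gene level (log2, horizontal axis) on the 5 knockout arrays (orange) and the 5 wild-type arrays (blue), with array numbers beside the points. Wild-type array 4 has the highest Epha2 (6.66) and the lowest Epha4 (8.47), and knockout array 1 has the lowest Epha2 (6.27) and the highest Epha4 (9.002).

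Cell type markers varied over the same arrays. Given as log2 means centred over the 10 arrays, the 5 excitatory neuron markers lay between -0.03 and 0.16 in knockout and between -0.25 and 0.14 in wild type, with wild-type arrays 4 and 5 at -0.23 and -0.25. The 6 astrocyte markers lay between -0.05 and 0.03 in knockout and between -0.20 and 0.16 in wild type, again lowest on wild-type arrays 4 and 5. All 8 measured oligodendrocyte and myelin markers were lower in knockout, with list means of -0.39 to -0.00 in knockout and -0.42 to 0.54 in wild type. With that list mean as a term in the fit Epha4 was at 0.28, Epha7 at 0.28, Epha3 at 0.22 and Epha2 at -0.23 (limma, smallest adjusted p = 0.267).

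The genotypes did not overlap for the mean of the hypothalamus markers, at -0.36 to -0.14 in knockout and 0.02 to 0.55 in wild type, with 7 of 8 measured members lower in knockout. With that mean as a term Epha4 was at 0.35, Epha6 at 0.06 and Epha2 at -0.26, in a fit where the median of all genes was 0.12, and none passed (limma, smallest adjusted p = 0.526). In bulk tissue fewer cells of a type and less RNA per cell cannot be told apart, and the part that a different mix of tissue has in the receptor levels was not tested further.

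Other tissue markers also lay to one side. All 6 measured striatum markers, all 6 of the central and medial amygdala and all 4 of the choroid plexus were lower in knockout, and 5 of 6 cortex markers were higher, none past the test (limma, smallest adjusted p = 0.693). Their list means overlapped between the genotypes, at -1.20 to 0.89 in knockout and -0.81 to 0.92 in wild type for the choroid plexus. Within genotype the 9 receptors were compared with the 15 marker list means, 135 relations, a test added after seeing the data. For r, none passed an adjusted p of 0.05 and 12 had an unadjusted p under 0.05 (exact permutation, two-sided). For rho, only Epha7 with the endothelial markers passed.

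The smallest p was that of Epha7 with the 3 measured endothelial markers, with an r of 0.94 (exact permutation p = 0.000903, adjusted p = 0.122) and a rho of 0.98 (exact permutation p = 0.000347, adjusted p = 0.0469). Its r was 0.90 without the 2 arrays farthest in the markers, and 0.90 without wild-type arrays 4 and 5. The next smallest p of r were those of Epha2, in the negative direction. Its r was -0.77 with the choroid plexus markers (exact permutation p = 0.00931, adjusted p = 0.451). With the cortex markers the r of Epha2 was -0.80 (exact permutation p = 0.0115, adjusted p = 0.451). Epha4 with the cortex markers had an r of 0.82 (exact permutation p = 0.0206, adjusted p = 0.451) and a rho of 0.84 (exact permutation p = 0.0112, adjusted p = 0.371). Its r was 0.63 without the 2 farthest arrays and 0.55 without wild-type arrays 4 and 5.

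**Figure D5:**
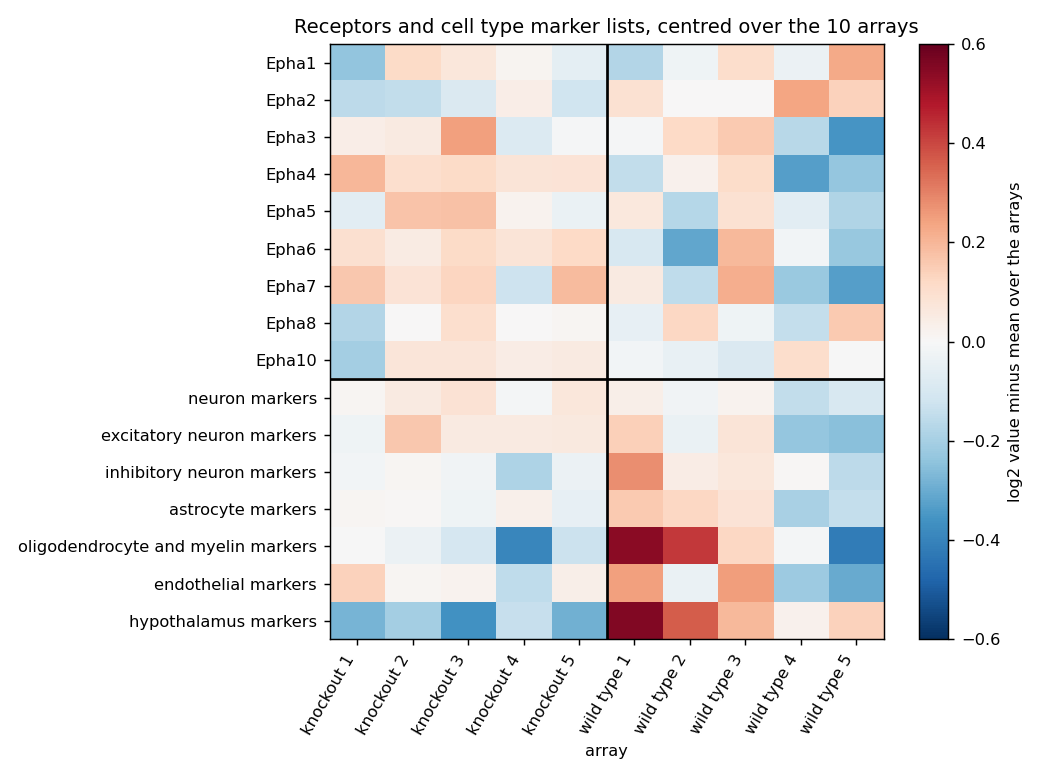
Gene level of the 9 EphA receptors and mean of 7 cell type marker lists, each minus its mean over the 10 arrays (log2, colour), for knockout arrays (left of the line) and wild-type arrays (right of it). Wild-type arrays 4 and 5 are low for Epha3, Epha4 and Epha7 and for the neuron, excitatory neuron and astrocyte markers, and high for Epha2.

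The genes whose levels followed each receptor most closely were found from the same centred values, by Pearson r over the 10 arrays. They are the top 3 of 16366 genes for each receptor, so their r is high by selection and no p is given. For Epha3 they were Ercc6l2 (r = 0.99, rho = 0.98), Alkbh1 (r = 0.98, rho = 0.98) and Pde4d (r = 0.97, rho = 0.92). For Epha4 they were Ccdc186 (r = 0.98, rho = 0.95), Sbno1 (r = 0.98, rho = 0.96) and Map2k6 (r = 0.97, rho = 0.92). For Epha7 they were 2700049A03Rik, Tmem184c and Gsk3b (r = 0.98 each, rho = 0.98, 0.96 and 0.96).

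The number of genes with an r above 0.9 was 314 for Epha3, 152 for Epha4 and 137 for Epha7. What this number is for a typical gene was not computed, so the counts are not shown to be particular to these receptors. For the other 6 receptors it was 5 to 13. Their nearest genes were Loxl4 for Epha2 (r = 0.96, rho = 0.96), Ccl25 for Epha5 (r = 0.97, rho = 0.94) and Ints6l for Epha6 (r = 0.94, rho = 0.92). Camta2 was nearest to Epha8 (r = 0.95, rho = 0.94), Vdr to Epha10 (r = 0.95, rho = 0.93) and 5830432E09Rik to Epha1 (r = 0.93, rho = 0.93).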

How the data were processed

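Exon arrays of 10 RNA pools were deposited as log2 values for every probe set. The authors obtained these by RMA with Affymetrix Expression Console, as the submitters' processing notes and the labels name it. Software versions and the annotation's genome build: not given in the sources used here. Of 1256831 probe sets, 318760 carried exactly 1 symbol in the platform annotation (symbols updated through RefSeq synonyms). No probe set with several symbols named an EphA receptor. The genotypes were compared by limma 3.58.1 in R 4.3.3 (lmFit and eBayes, no covariates, two-sided, Benjamini-Hochberg over all features), and the code was tested on simulated data. Depth has no counterpart here, and the 5 arrays per genotype limit the precision.

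The receptors and lists were chosen with earlier results of these data known. The named genes are the receptors, the ephrin-A ligands, the 3 members of smallest p of each other list (1 list is not reported here), the 2 probe sets of smallest p per receptor, and the 3 genes nearest to each receptor (only the nearest is printed for 6 receptors). Without scanner files, neither the background correction nor the scan could be varied. Normalization, filter, summary, variance prior, covariates and left-out arrays were varied. The share of same-numbered arrays that deviate together was checked, and numbers were not taken as pairs.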

Additional observations from a re-analysis of the deposited data

Results flagged for a closer look

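In 2 of 64 groups of 5 arrays, 1 array lay far from the other 4 by Dixon's test, and chance alone gives about 1 in 20 groups. Epha10 was at 7.31 on knockout array 1, while the other knockout arrays lay between 7.56 and 7.59. Tiam1 was at 8.71 on knockout array 3, while the other knockout arrays lay between 8.83 and 8.87.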

How the results depend on the processing

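No EphA receptor and no probe set of one passed in any setting tried. In exon use the number was 0, except 1 (Epha6) without wild-type array 3 and 1 with the replicate numbers as a block (range over left-out arrays 0 to 1). The median over the receptors was 0.10. It was 0.0283 without arrays 4 and 5 of both genotypes, where the median over all genes was -0.0466. With single arrays left out it was 0.0253 to 0.141. It was lowest without wild-type array 5, where the median over all genes was -0.0178. The settings without arrays 4 and 5 of both genotypes and with cyclic loess were chosen after seeing the data. Same-numbered arrays had correlations of 0.082 to 0.412. Knockout array 5 was closest to wild-type array 4, wild-type array 2 to knockout array 3 and wild-type array 5 to knockout array 4. The other arrays were closest to their own number. With the replicate block 1 receptor passed in exon use (Epha6, Simes adjusted p = 0.0498), where 2.74% of all genes were called against 1.69% without it, none at the gene level, and the median was 0.10. Differences that changed sign, none past the threshold before or after, were as follows. With centring each array: Efna4 0.0133. With the stricter filter: Ephb2 -0.0202. With array weights: Efna4 0.0179, Efna5 -0.0129. With the first principal component as a term: Efna4 0.0314. With the oligodendrocyte mean as a term: Epha10 -0.00825, Efnb3 0.00772. With the hypothalamus mean as a term: Epha10 -0.0434, Efna1 0.20, Efna2 0.38, Efnb3 0.33, Ephb2 -0.0287. With wild-type arrays 4 and 5 left out: Epha1 0.0139, Epha3 -0.0388, Efna3 -0.0736, Efna4 0.0526, Efna5 -0.0658, Adam10 -0.0738, Slc1a2 -0.0237. With the median over probe sets: Epha1 0.14, Efna3 -0.12, Efna4 0.11, Slc1a2 -0.0162. With arrays 4 and 5 of both genotypes left out: Epha1 0.0151, Efna3 -0.0578, Efna5 -0.0423, Adam10 -0.0864, Slc1a2 -0.0857. With cyclic loess: Epha8 0.0227, Epha10 -0.0129, Efna4 0.0418. With single arrays left out, the signs also turned for Epha1 (-0.087 to 0.016), Epha8 (-0.0646 to 0.0155), Efna4 (-0.0445 to 0.0751), Efna5 (-0.00143 to 0.11), Epha10 (-0.00395 to 0.0687), Slc1a2 (-0.0251 to 0.0752), Efna3 (-0.00771 to 0.11), Adam10 (-0.00848 to 0.11). The cause was not tested. Epha1 rests on 7 of its 24 probe sets, those above the intensity filter.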
